A study of Medicago ruthenica with 3 samples.

Results

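Transcripts of abscisic acid signalling and of the protein phosphatases 2C were followed in a degradome table of Medicago ruthenica leaves, a perennial forage legume. A transcript was taken when its annotation named protein phosphatase 2C, abscisic acid, abscisate, ABA-responsive, SnRK2, SRK2 or 9-cis-epoxycarotenoid, or when its symbol was PP2CA, At2g30020, PYL9 or AOG. This gave 52 of the 6912 transcripts in the table, and 1 of them, PYL9, entered by its symbol alone. Of the 52, 40 were annotated as phosphatases 2C, and only 6 of these belonged to clade A, the branch that acts in the abscisic acid pathway, by the symbols and numbers used to group them. The set is therefore mostly one of phosphatases outside the core pathway, with 12 transcripts of synthesis, turnover, perception, kinases and transcription factors beside them.

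The plants were seedlings of 1 drought-hardy cultivar, 4 weeks old at treatment and grown with 8 plants to a pot. Control plants (CK) received water every 3 days and kept a relative soil moisture above 80%. Drought plants (DS) went without water for 15 days and ended at 20%. Rewatered plants (RW) went through the same drought and were harvested 2 days after the pots had been soaked. Leaves of CK and DS were collected on day 15, so those of RW came from plants 2 days older. No watered control of that age was sampled, and every comparison with RW also spans these 2 days. No group received nutrients during treatment, and no transgene or mutant was involved. Each condition had 1 degradome library, although the labels name 3 biological replicates for each treatment. Whether their RNA was pooled for the library is not given in the sources used here, and no difference reported here could be checked against a replicate.

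Abscisic acid is the hormone of water shortage. It binds receptors of the PYR/PYL family, and the occupied receptor blocks phosphatases 2C of clade A, which otherwise keep kinases of the SnRK2 family inactive. The freed kinases phosphorylate transcription factors of the ABF and ABI5 group and, in guard cells, ion channels that close the stomata. In Arabidopsis the genes of several clade A phosphatases are themselves induced by the hormone. A degradome library captures the 5′ ends of uncapped, polyadenylated RNA. Cleavage guided by a microRNA (miRNA) leaves such an end, and so do other routes of decay. Every value below is therefore an amount of uncapped RNA assigned to a transcript. From the degradome alone, a change in it cannot be told apart from a change in the amount of that transcript. Whether the small RNA listed beside it guided the cut was not tested.

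Only 1 member transcript has its own primers in the study's primer list, At2g30020 (TRINITY_DN22423_c0_g2), and a small RNA listed on it, lja-miR390a-3p, has one. These primers are shown because they fix which assembled transcript and which small RNA the names below stand for. They are given 5′ to 3′ in lower case, and no base is marked. The primers on the transcript are both 18 bases long, with a GC content of 50.0% for the forward and 61.1% for the reverse primer, and that for the small RNA has 23 bases. The study's list also has a primer for lus-miR396b_R+1_1ss19CT, listed on CYP707A4 (TRINITY_DN19508_c0_g3) with 1 read, which is not printed.
At2g30020 forward: cgccttctccttgttctt
At2g30020 reverse: gcctggtaggtcgtttcc
lja-miR390a-3p: cgcgctatccatcctgagtttca

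The table held 24790, 32719 and 29617 reads in CK, DS and RW, so that 1 read was worth 40.3, 30.6 and 33.8 RPM (reads per 1000000 reads of the table). Among leaf transcripts, 11 of chlorophyll a/b-binding proteins had 279, 129 and 246 reads in CK, DS and RW, while 1 of the ribulose bisphosphate carboxylase small subunit had 4, 0 and 36 and so was not listed in DS. Intervals are exact 95% intervals, and since the reads carry no molecular identifiers they cover counting error only. A transcript was tested when 10 or more reads fell in the 2 libraries compared, with a two-sided exact binomial test adjusted over all transcripts tested. Such a test compares 2 libraries, not 2 conditions. The 3 comparisons share libraries and are not independent of each other. Reads were not corrected for transcript length, so levels are compared between libraries and never between genes.

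The members were as shallow as the rest of the table. Their median was 3 reads over the 3 libraries, as for all transcripts, and 10 of the 52 (19.2%) had 10 or more reads, against 19.5% of all transcripts. Those 10 carried 246 of the 384 member reads (64.1%), and 12 members had a single read. Of the members, 12 were listed in all 3 libraries (23.1%), 15 in 2 (28.8%) and 25 in 1 (48.1%), close to the 26.8%, 24.3% and 48.9% of all transcripts. At the limit of 10 reads, SRK2H with 11 and At2g20050/At2g20040 with 10 lay just inside, and HAB1 (TRINITY_DN19803_c2_g1) with 9 and At1g34750 with 7 just outside.

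Together the members took the largest part of the table in drought. They had 74, 198 and 112 reads in CK, DS and RW, or 2985, 6052 and 3782 RPM. As a share of each library this was 0.299% in CK (Clopper-Pearson interval 0.234 to 0.375), 0.605% in DS (0.524 to 0.695) and 0.378% in RW (0.311 to 0.455), so that the interval of DS lay above those of both other libraries. The sum was 2.03 times as high in DS as in CK (1.54 to 2.69), 0.625 times as high in RW as in DS (0.491 to 0.792) and 1.27 times as high in RW as in CK (0.936 to 1.72). That last ratio was 1.51 without scaling (1.12 to 2.06) and 1.95 with mapped reads as the scale (1.44 to 2.65), so that its interval then excluded 1, as it also did without AOG (1.51, 1.09 to 2.10) and with only the deepest entry of each transcript (1.59, 1.11 to 2.30). More members were also listed in DS, with 22 in CK (42.3%), 39 in DS (75%) and 30 in RW (57.7%), where 51.9%, 61.0% and 64.9% of all transcripts were listed. Members listed in DS alone numbered 13 (25%), against 6 in CK alone (11.5%) and 6 in RW alone (11.5%), where 17%, 11.9% and 19.9% of all transcripts were listed in DS, CK and RW alone.

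Most of this rise lay on 3 transcripts, AOG, PP2CA and At2g30020, which had 15, 99 and 20 reads together in CK, DS and RW. Without them the other 49 members had 59, 99 and 92 reads, and the ratios were 1.27 in DS/CK (0.912 to 1.79), 1.03 in RW/DS (0.764 to 1.38) and 1.31 in RW/CK (0.931 to 1.84). These 3 were singled out after their values had been seen. The 42 members under 10 reads, which had no part in any call, summed to 31, 53 and 54 reads, with a DS/CK ratio of 1.30 (0.816 to 2.09) and a RW/CK ratio of 1.46 (0.921 to 2.35). Their intervals include 1.

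**Figure D1:**
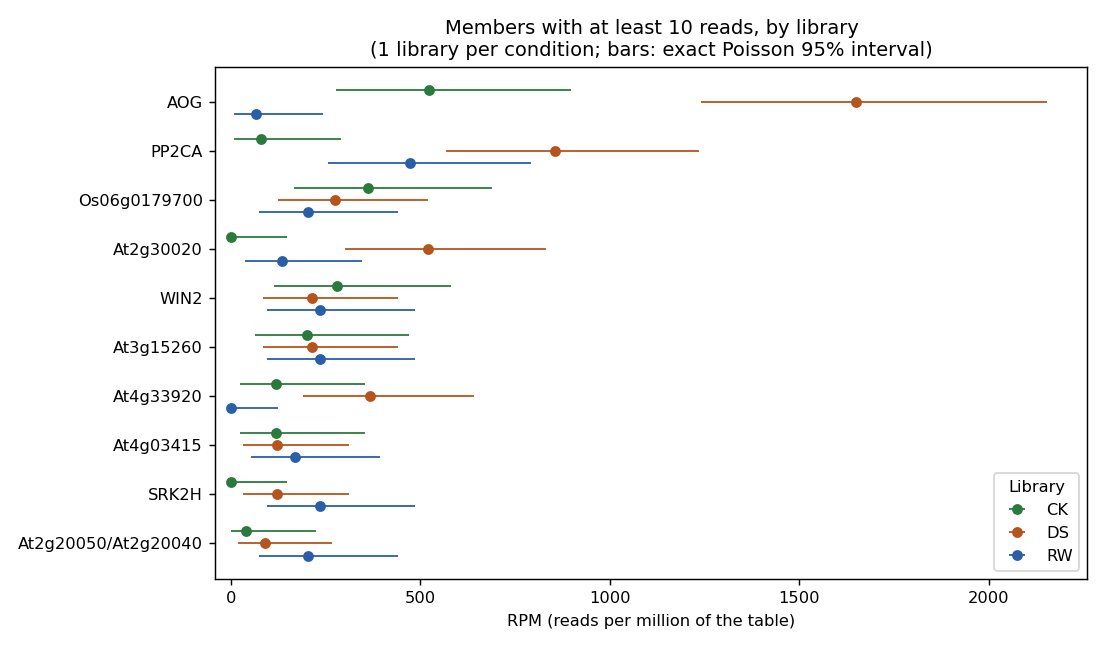
RPM in CK (green), DS (orange) and RW (blue) for the 10 members with at least 10 reads over the libraries. Points are the value of the single library of each condition and bars are exact Poisson 95% intervals. AOG, PP2CA, At2g30020 and At4g33920 stood highest in DS, whereas the bars of the other 6 members overlapped between all libraries.

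Among genes that make and remove the hormone, AOG carried most reads. AOG (TRINITY_DN15076_c0_g3) is annotated as abscisate beta-glucosyltransferase-like, after the enzyme that conjugates abscisic acid to glucose and so stores it in an inactive form. It had 13 reads in CK (524 RPM, 279 to 897), 54 in DS (1650 RPM, 1240 to 2153) and 2 in RW (67.5 RPM, 8.18 to 244). The 3 intervals did not overlap. In DS vs CK the ratio was 3.15 (1.70 to 6.29, exact binomial test, adjusted p = 7.5e-04). After rewatering AOG was 24.4-fold lower than in DS (6.45 to 207, exact binomial test, adjusted p = 1.9e-11) and 7.77-fold lower than in CK (1.76 to 70.9, adjusted p = 0.018). Its value after rewatering thus lay below that of the watered control, which was collected 2 days earlier. That last call does not hold when reads are left unscaled (adjusted p = 0.056) or scaled to all mapped reads (0.068).

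The other members of synthesis and turnover had too few reads for a test. CYP707A4 encodes abscisic acid 8'-hydroxylase, which breaks the hormone down by oxidation. One transcript of it (TRINITY_DN24977_c0_g1) had 3 reads, all of them in CK, and the other (TRINITY_DN19508_c0_g3) had 1 read in DS. NCED1, whose enzyme cleaves 9-cis-epoxycarotenoids in the step that limits synthesis, had 0, 2 and 3 reads in CK, DS and RW. The 149 RPM allowed by 0 reads in CK at the upper end of the interval exceeds the values of NCED1 in DS (61.1 RPM) and RW (101 RPM), so no difference was detectable at this depth.

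Receptors were likewise shallow. PYL8 had 4, 1 and 1 reads in CK, DS and RW, and PYL9, annotated in this table only as a START-like domain protein, had 2, 1 and 3. Their sum was 242 RPM in CK (88.8 to 527), 61.1 in DS (7.40 to 221) and 135 in RW (36.8 to 346), with overlapping intervals.

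Clade A phosphatases are the partners of the receptors. SAG113 and the Os01g0583100 transcript TRINITY_DN23965_c0_g2, which had reads in CK, were not in this group and are counted below. The 6 transcripts in the group were nearly absent from CK and present in DS and RW. The 6 transcripts had 2 reads in CK (80.7 RPM, 9.77 to 291), 39 in DS (1192 RPM, 848 to 1629) and 28 in RW (945 RPM, 628 to 1366), and 5 of them were listed in DS, 5 in RW and 1 in CK. In contrast to AOG the sum stayed high after rewatering, with ratios of 14.8 in DS/CK (3.82 to 126), 0.793 in RW/DS (0.470 to 1.32) and 11.7 in RW/CK (2.95 to 102). PP2CA (TRINITY_DN19234_c0_g1), annotated as protein phosphatase 2C 37-like and in Arabidopsis a strong negative regulator of the hormone response, had most of these reads. It had 2 reads in CK (80.7 RPM, 9.77 to 291), 28 in DS (856 RPM, 569 to 1237) and 14 in RW (473 RPM, 258 to 793). DS lay above CK without overlap, and RW lay between them and overlapped both. PP2CA was 10.6 times as high in DS as in CK (2.67 to 91.9, exact binomial test, adjusted p = 2.9e-04). The 0.552 of RW/DS (0.269 to 1.08, adjusted p = 0.24) and the 5.86 of RW/CK (1.35 to 53.1, adjusted p = 0.062) did not pass the same exact test, although RW vs CK passed it without scaling (0.036) and with mapped reads (0.0041).

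The remaining 5 clade A transcripts had no read in CK, 11 in DS and 14 in RW, each under 10 reads and none tested. HAB1, a further brake on the pathway, was represented by 2 transcripts, TRINITY_DN19803_c2_g1 with 0, 3 and 6 reads in CK, DS and RW and TRINITY_DN24358_c2_g1 with 0, 2 and 3. ABI1 (TRINITY_DN17572_c0_g1), known from the abscisic acid insensitive mutants of Arabidopsis, had 0, 2 and 4. The transcript annotated as phosphatase 2C 56 (Os01g0583100, TRINITY_DN23713_c0_g1) had 4 reads in DS and none elsewhere, and that annotated as 2C 51 (Os05g0572700) had 1 read in RW. Against the 0 reads of CK the lower limit of the ratio of this sum was 1.90 in DS and 2.78 in RW.

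The size of the clade A ratio depends on which transcripts are counted. A second transcript with the symbol Os01g0583100 (TRINITY_DN23965_c0_g2), annotated as phosphatase 2C 6 and of a gene placed in clade A in rice, had 3 reads, all in CK. With it the sum was 5, 39 and 28 reads, the DS/CK ratio 5.91 (2.33 to 19.2) and the RW/CK ratio 4.69 (1.79 to 15.5), and without PP2CA the DS/CK ratio was 2.78 (0.734 to 15.5). SAG113, a clade A phosphatase of leaf senescence in Arabidopsis that the annotation words did not catch, had 11, 10 and 18 reads in CK, DS and RW and passed the test in no comparison. Adding both brought the sum to 16, 49 and 46 reads, with ratios of 2.32 in DS/CK (1.30 to 4.37), 1.04 in RW/DS (0.678 to 1.58) and 2.41 in RW/CK (1.34 to 4.55). Both intervals against CK stayed above 1, but PP2CA alone held 2, 28 and 14 of these reads in CK, DS and RW. SAG113 itself had nearly the same reads in CK and DS.

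**Figure D2:**
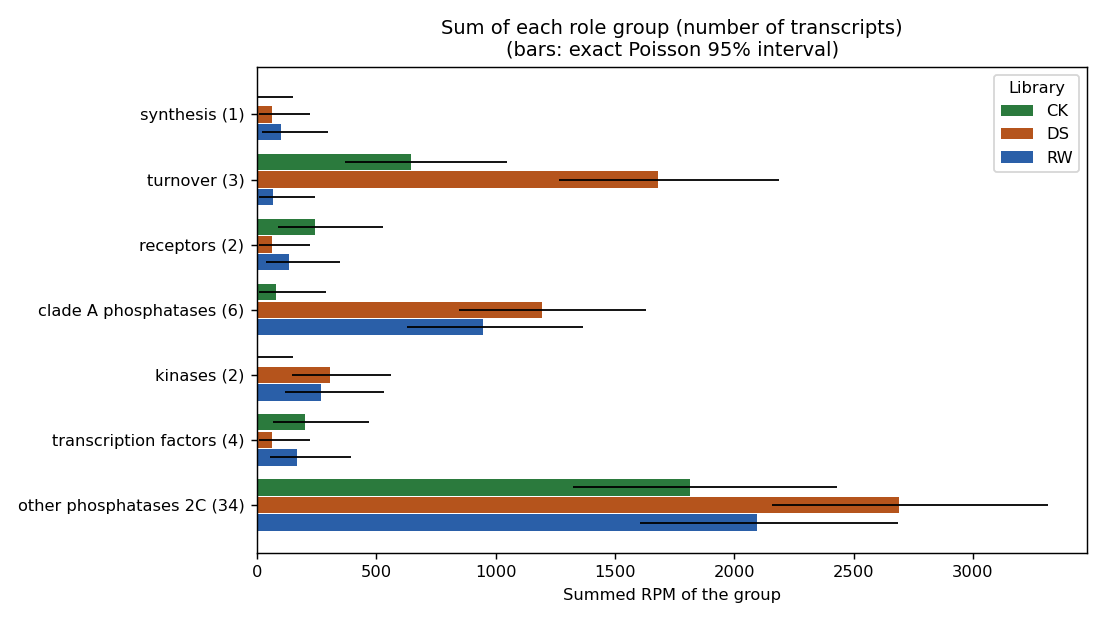
Summed RPM of each role group in CK (green), DS (orange) and RW (blue), with the number of transcripts in brackets and exact Poisson 95% intervals as bars. The turnover group was high in DS (1681 RPM) and at 67.5 RPM in RW, whereas the clade A group was at 1192 RPM in DS and still at 945 in RW.

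The SnRK2 kinases of the set were SRK2H and SRK2A, members of the subclass that in Arabidopsis responds to osmotic stress and not to abscisic acid. SRK2H (TRINITY_DN18125_c0_g2) had 0, 4 and 7 reads in CK, DS and RW, and SRK2A (TRINITY_DN14162_c0_g1) had 0, 6 and 1. Neither was listed in CK, and their order in DS and RW was opposite. For SRK2H the ratio of 1.93 in RW/DS (0.491 to 9.01, exact binomial test, adjusted p = 0.59) did not pass, and it had too few reads for a test against CK. As a sum the kinases had 0, 10 and 8 reads, with lower limits of 1.70 in DS/CK and 1.43 in RW/CK. SAPK2, a kinase of the same family named outside the annotation words, had 1, 6 and 2 reads.

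The transcription factors at the end of the pathway had 12 reads in all. DPBF3 was listed as 2 transcripts with 2, 1 and 2 reads (TRINITY_DN17825_c0_g7) and 3, 0 and 0 reads (TRINITY_DN17825_c0_g2) in CK, DS and RW, DPBF4 had 0, 1 and 2, and ABF4 had 1 read in RW. Their sums of 5, 2 and 5 reads gave a DS/CK ratio of 0.303 (0.0289 to 1.85), which includes 1.

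The 34 phosphatases 2C not grouped as clade A, the second Os01g0583100 transcript among them, had 45, 88 and 62 reads in CK, DS and RW (1815, 2690 and 2093 RPM). The ratio was 1.48 in DS/CK (1.02 to 2.17), 0.778 in RW/DS (0.553 to 1.09) and 1.15 in RW/CK (0.773 to 1.73). A single transcript, At2g30020, took it away from 1 in DS/CK, since without it the sums were 45, 71 and 58 reads and the ratio 1.20 (0.811 to 1.78).

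At2g30020 is annotated as probable protein phosphatase 2C 2, and its Arabidopsis counterpart, AP2C1, is a wound-responsive phosphatase that inactivates mitogen-activated protein kinases. No read was found in CK (up to 149 RPM), 17 in DS (520 RPM, 303 to 832) and 4 in RW (135 RPM, 36.8 to 346). DS did not overlap CK, and RW overlapped both. Against a floor of 3 reads in CK (121 RPM) it was at least 4.29-fold higher in DS (exact binomial test, adjusted p = 9.7e-04), and the exact 95% interval put its lower limit at 3.13. It was 3.85-fold lower in RW than in DS (1.25 to 15.7, exact binomial test, adjusted p = 0.048), a call that was lost with mapped reads as the scale (adjusted p = 0.069) and with a minimum of 5 reads (0.074). In RW vs CK it had too few reads for a test. By RNA sequencing the study reported this transcript as higher in DS than in CK. It reported lja-miR390a-3p as lower there by small RNA sequencing. Whether the uncapped RNA of At2g30020 rose more than the transcript itself was not tested.

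At4g33920 (TRINITY_DN19919_c0_g1), probable protein phosphatase 2C 63, had 3 reads in CK (121 RPM, 25.0 to 354), 12 in DS (367 RPM, 190 to 641) and 0 in RW (up to 125 RPM). The ratio of 3.03 in DS/CK (0.818 to 16.7, exact binomial test, adjusted p = 0.27) did not pass. It was at least 3.62-fold lower in RW than in DS against a floor of 3 reads in RW (101 RPM, exact binomial test, adjusted p = 0.0058), and the exact 95% interval put the lower limit of this fold at 2.52. At2g30020 and At4g33920 reached the minimum of 10 reads through DS alone in both comparisons with DS, and could not have been tested had their reads in DS been as few as in the other libraries.

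The other 5 deep phosphatases gave no call, and At4g03415 and At2g20050/At2g20040 had under 10 reads in every pair of libraries and were not tested. Os06g0179700 (protein phosphatase 2C 27) had 9, 9 and 6 reads in CK, DS and RW. WIN2 (2C 59), an interactor of a bacterial effector in Arabidopsis, had 7 reads in each library. At3g15260 (2C 39) had 5, 7 and 7, At4g03415 (2C 52, TRINITY_DN13987_c0_g1) 3, 4 and 5, and At2g20050/At2g20040, a phosphatase fused to a cyclic nucleotide-binding and kinase domain, 1, 3 and 6. The intervals of their RPM values overlapped between all libraries. Even for WIN2, with equal reads throughout, the DS/CK interval ran from 0.227 to 2.53, so a change within these limits was not detectable at this depth.

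Counted over all members tested, DS vs CK gave 3 of 7 higher and 0 lower, namely AOG, PP2CA and At2g30020. Over all 928 transcripts tested, 11.0% were higher and 9.16% lower. At least 2-fold higher were 4 of the 7, against 23.9% of all tested, and none was 2-fold lower, against 18.0%. The median log2 ratio was 1.30 in the tested members and 0.09 over all transcripts tested. Of the 52 members 7 entered, and PP2CA, At2g30020 and At4g33920 reached 10 reads through DS alone, where they were high, so the counts and the median describe those 7 and carry no weight for the set.

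In RW vs DS, 0 of 8 tested members were higher and 3 lower (AOG, At2g30020 and At4g33920), where 9.95% and 8.42% of the 1045 tested transcripts were higher and lower. No member was 2-fold higher and 3 were 2-fold lower, against 19.7% and 17.4% of all tested. The median log2 ratio was -0.59 in the members and 0.07 over all. All 3 members called here reached 10 reads through DS alone, so these counts and this median too are a description only. In RW vs CK, 5 members were tested, of which 0 were higher and 1 lower (AOG), with a background of 7.05% higher and 6.27% lower among 893 transcripts. Here 1 member was 2-fold higher and 1 was 2-fold lower (PP2CA and AOG), against 17.8% and 12.7%, and the medians were -0.26 and 0.11. AOG reached 10 reads here through CK alone and PP2CA through RW alone, where each was high, so these values too are a description only. With no scaling or with mapped reads the call in RW vs CK passed from AOG, lower, to PP2CA, higher, while the median log2 ratio of all tested transcripts moved from 0.11 to 0.36 and 0.73.

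All these calls assume that libraries differ by counting error alone. When edgeR was given an assumed coefficient of variation of 0.4 between libraries of 1 condition, 0 members were called in DS vs CK (2 with an unadjusted p under 0.05) and 0 in RW vs CK (0 with such a p), and in RW vs DS only AOG was called. Under it AOG, PP2CA and At2g30020 had adjusted p of 0.60, 0.21 and 0.13 in DS vs CK.

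**Figure D3:**
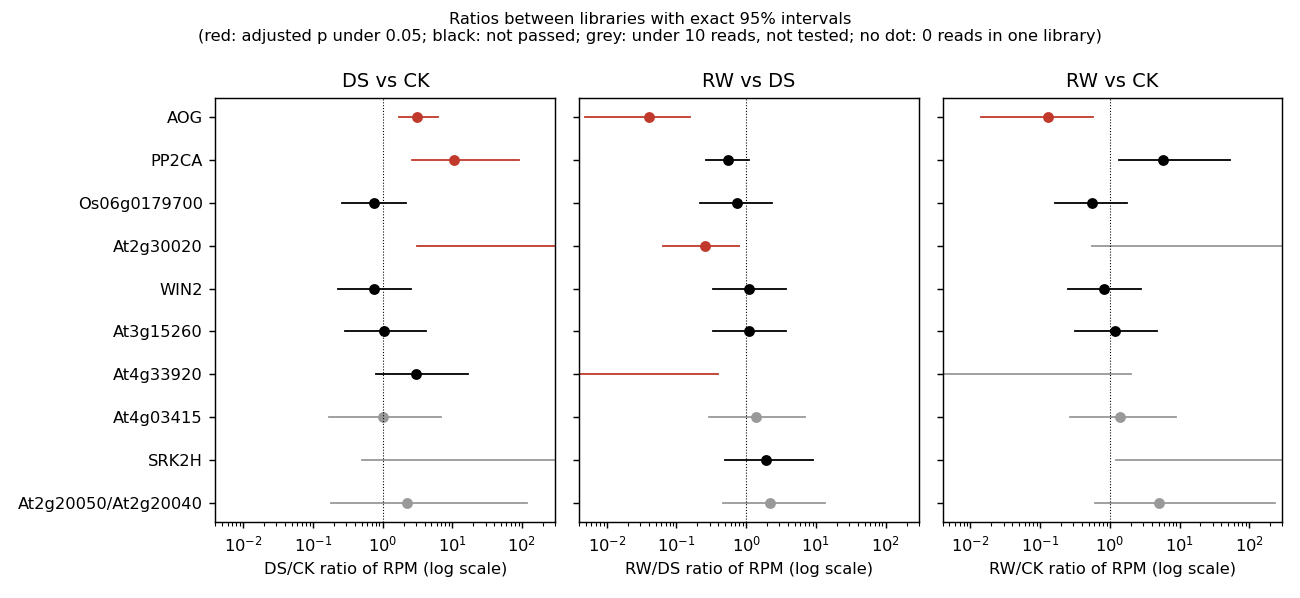
Ratio of RPM between libraries on a log axis for the 10 deepest members, with exact 95% intervals. The panels show DS vs CK on the left, RW vs DS in the centre and RW vs CK on the right. Red marks an adjusted p under 0.05, black a test not passed and grey a member with under 10 reads in the pair. The interval of AOG lies above 1 in DS vs CK and below 1 in both other panels, whereas that of PP2CA lies above 1 in both comparisons with CK.

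The members were listed with 53 small RNAs in 86 entries. Of these small RNAs 40 were listed on 1 member and 13 on 2 or more, and 31 members had 1 small RNA while 21 had 2 to 5. The most frequent, ppe-MIR169i-p5_2ss17GT19TG, was listed on 17 members (32.7%), close to its share of all transcripts (30.7%), and held 16.4% of the member reads against 18.3% of the reads in the table. Phosphatases 2C are no textbook target of a conserved miRNA, and the names alone do not tell which entries share a site. A read that lies at a site assigned to several small RNAs may be counted under each. The tests and intervals treat every such count as a separate read. For transcripts with several small RNAs, such as At2g30020, they may therefore rest on repeated reads, which was not tested.

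PP2CA was the simplest case. All 2 reads of CK, all 28 of DS and 13 of the 14 of RW stood under ath-miR8175_L-2_1ss12AG, and the other read of RW under a miR169c precursor product. Over the 62 transcripts of the table listed with that small RNA, its reads were 132, 201 and 227 in CK, DS and RW, a DS/CK ratio of 1.15, so PP2CA moved more than all entries of that small RNA summed.

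AOG was spread over 4 small RNAs in 5 entries. PC-3p-905_4408, predicted in this species by the study, had 5, 31 and 2 reads in CK, DS and RW. The entry of nta-miR482a_R-3_1ss19CT had 15 reads in DS and none elsewhere, and a second entry of it had 1 read in CK. ppe-MIR169i-p5_2ss17GT19TG had 5, 4 and 0 reads and mtr-MIR5299-p5_1ss5AT 2, 4 and 0. In RW only PC-3p-905_4408 kept any read, whereas the rise in DS lay in PC-3p-905_4408 and nta-miR482a. NCED1 was also listed with PC-3p-905_4408, with all of its 5 reads.

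At2g30020 had 5 small RNAs, and none of them held most of its reads. In DS it had 6 reads with ppe-MIR169i-p5_2ss17GT19TG, 4 with mtr-MIR164b-p3, 4 with mtr-MIR5205d-p5, 2 with mtr-MIR5205d-p3 and 1 with lja-miR390a-3p, the small RNA whose primer is printed above. In RW it had 3 reads with lja-miR390a-3p and 1 with mtr-MIR5205d-p3. When each transcript was reduced to its deepest entry, At2g30020 had too few reads left for a test in DS vs CK, while AOG and PP2CA were still called there.

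Among the other deep members, Os06g0179700 had 2 entries that ran in opposite directions. With mtr-miR160a, whose textbook targets are auxin response factors, it had 7, 2 and 0 reads in CK, DS and RW, and with ppe-MIR169i-p5_2ss17GT19TG it had 2, 7 and 6. Its sum of 9, 9 and 6 reads was thus made up of different entries in CK and RW. WIN2 was similar, since its reads in CK stood under PC-3p-97186_44 (3), nta-miR482a (3) and mtr-miR2111a-5p (1), and those in DS (7) and 6 of the 7 in RW under mtr-miR2111a-5p. At4g33920 had 1 entry, mtr-MIR2673b-p5, and SRK2H had 4 and 5 reads in DS and RW with mes-MIR482b-p5 and 2 in RW with gma-miR156b. Apart from the single entry of At4g33920, whose test is that of the transcript, the differences between the entries of these members were not tested.

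**Figure D4:**
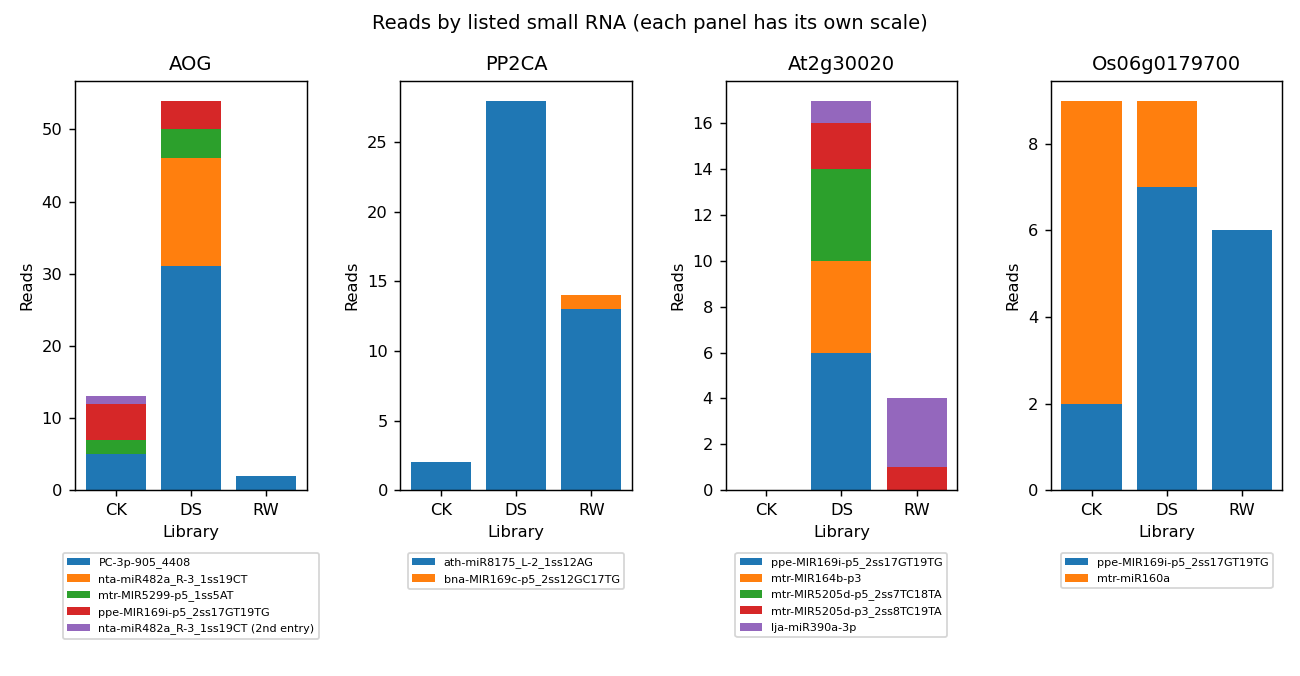
Reads in CK, DS and RW by listed small RNA for AOG, PP2CA, At2g30020 and Os06g0179700, stacked, each panel on its own scale from 0. PP2CA rests on ath-miR8175_L-2_1ss12AG (28 of 28 reads in DS), At2g30020 on 5 small RNAs, and in Os06g0179700 the mtr-miR160a part shrinks from 7 reads in CK to 0 in RW while that of ppe-MIR169i goes from 2 to 6.

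Beyond the members, 27 transcripts of the pathway by symbol or annotation had 48, 105 and 97 reads in CK, DS and RW. The ratios of these sums were 1.66 in DS/CK (1.17 to 2.38), 1.02 in RW/DS (0.766 to 1.36) and 1.69 in RW/CK (1.19 to 2.44). In DS vs CK 1 of 5 tested was higher and 0 lower, against 11.0% and 9.16% of all tested transcripts. In RW vs DS 0 of 6 were higher and 1 lower, against 9.95% and 8.42%. In RW vs CK 1 of 6 was higher and 0 lower, against 7.05% and 6.27%. A transcript of MYB44 (TRINITY_DN14068_c1_g1), a factor that in Arabidopsis represses clade A phosphatase genes, had 5, 27 and 6 reads in CK, DS and RW. It was 4.09 times as high in DS as in CK (1.55 to 13.6, exact binomial test, adjusted p = 0.014) and 4.07-fold lower in RW than in DS (1.65 to 12.1, adjusted p = 0.0066). In both comparisons it reached the minimum of 10 reads through DS alone, where it was high. By the same exact test the first call was lost with no read minimum (adjusted p = 0.080) and the other with the deepest entry alone (0.12), and both were lost with the assumed spread in edgeR (0.55 and 0.63). A second MYB44 transcript (TRINITY_DN18781_c1_g2) had 6, 19 and 11 reads and did not pass (exact binomial test, adjusted p = 0.20 in DS vs CK).

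RGLG2 (TRINITY_DN17594_c0_g2), annotated as RGLG5 isoform X1, is of a ubiquitin ligase family that in Arabidopsis marks PP2CA for breakdown. It had 0, 4 and 10 reads in CK, DS and RW. Against the floor it was at least 2.79-fold higher in RW than in CK (exact binomial test, adjusted p = 0.027), with a lower limit of 1.88 by the exact 95% interval. It reached the minimum through RW alone. Other transcripts with this symbol had 4, 0 and 2 reads (TRINITY_DN19040_c0_g3) and 0, 0 and 1 (TRINITY_DN20828_c0_g3), too few for a test. KEG, the ligase that removes ABI5 in Arabidopsis, had 2, 8 and 12 reads (adjusted p = 0.14 by the exact test in RW vs CK). Of the enzymes of synthesis, a zeaxanthin epoxidase (TRINITY_DN23284_c0_g1) had 13, 11 and 15 reads. AAO3, placed here by its symbol but annotated as indole-3-acetaldehyde oxidase, had 2, 5 and 6. Neither was called in any comparison in which it was tested. BLH1 had 6, 4 and 4 reads, and ATHB-12 had 2, 3 and 5.

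Protein phosphatases outside the set gave a comparison within the wider enzyme class, with SAG113 among them. The 30 transcripts had 40, 59 and 58 reads in CK, DS and RW, with ratios of 1.12 in DS/CK (0.736 to 1.71), 1.09 in RW/DS (0.743 to 1.59) and 1.21 in RW/CK (0.797 to 1.86). None of the 2, 3 and 2 transcripts tested was called, and none had an unadjusted p under 0.05 by the exact test. Without SAG113 the sums were 29, 49 and 40 reads and the DS/CK ratio 1.28 (0.793 to 2.10). The difference between this list and the members, at 2.03, was not tested.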

How the data were processed

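Leaves of 3 groups of Medicago ruthenica (CK, DS and RW) were profiled by degradome sequencing, with 1 library each on an Illumina HiSeq instrument. The authors searched the reads for cleavage sites with ACGT101-DEG, which builds on CleaveLand4, against their own Trinity assembly. The deposited values are RPM, normalized by the authors so that each library sums to 1000000 over the entries listed, not over all its reads. All values (100%) were whole multiples of 1 read within 0.01 of a read, so whole reads were recovered and summed per transcript over all small RNA entries. Cleavage positions, alignment scores and cleavage categories were not used here.

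Groups came from the sample titles. The members, role groups and lists were chosen with earlier results of these data known. Transcripts with 10 or more reads in the 2 libraries compared entered a two-sided exact binomial test, conditional on their sum, with the table totals as the expected ratio, with Benjamini-Hochberg adjustment over all of them and a threshold of 0.05. Ratios have exact conditional intervals, RPM values exact Poisson intervals and shares Clopper-Pearson intervals, all at 95%. Ratios to 0 reads used a floor of 3 reads (121, 91.7 and 101 RPM for CK, DS and RW). Medians of log2 ratios used a pseudocount of 1 read. Every member with 10 or more reads over the libraries was named. Members of the core pathway with fewer reads could be named without a call, other members entered as sums, and genes outside the set were named from 2 lists when they had 10 or more reads. SAPK2, with 9 reads, At1g34750, at the read limit, the second Os01g0583100 and the RGLG2 transcripts under 10 reads were named after their values had been seen. Alternatives changed the scaling, the read minimum, the entries counted, the members and the assumed spread (edgeR 4.0.16). The test was tried on simulated data with scipy 1.17.1 and Python 3.11.15.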

Additional observations from a re-analysis of the deposited data

How the results depend on the processing

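Each condition had 1 library, so no replicate could be left out. No paired analysis was possible because the 3 libraries carry no shared replicates. Depth is the main limit, since 42 of 52 members had under 10 reads. The number of members called stayed within 1.5 times of the main count under every scaling and minimum in DS vs CK (2 or 3 against 3) and RW vs DS (2 or 3 against 3). With the assumed coefficient of variation of 0.4 in edgeR it moved to 0 in DS vs CK, 1 in RW vs DS and 0 in RW vs CK. Taking members by annotation words alone left out only PYL9, which had too few reads for a test, so that choice could not move a call. In RW vs CK the count of 1 also moved to 0 with no minimum and with the single deepest entry per transcript, fewer reads per transcript being left in the latter, and at a minimum of 20 reads no member could be tested. With no minimum the adjusted p of At2g30020 was 0.23 in RW vs DS and that of AOG 0.11 in RW vs CK. Mapped reads as the scale moved the sum of all members to 2.94 in DS/CK and 1.95 in RW/CK. Without AOG, the member with most reads, the sum moved to 0.844 in RW/DS (0.652 to 1.09). Without AOG, PP2CA and At2g30020, an alternative chosen after seeing the data, it moved to 1.27 in DS/CK and turned to 1.03 in RW/DS. Scaling moved the median log2 ratio of all tested transcripts in DS vs CK from 0.09 to 0.49 without scaling and 0.62 with mapped reads. The number of all transcripts called in DS vs CK, 187, became 286 with mapped reads, 115 with no minimum and 2 with edgeR, in RW vs DS 192 became 117 with no minimum and 6 with edgeR, and in RW vs CK 119 became 226, 51 and 1. Outside the members, mapped reads brought a call for the second MYB44 transcript in DS vs CK (adjusted p = 0.020 by the exact binomial test) and for KEG in RW vs CK (0.012), and the call of RGLG2 in RW vs CK was lost with a minimum of 5 reads (0.051). Over the tests of single transcripts under alternatives, members and others, 326 kept their side of the threshold, 19 lost the call and 4 gained one. The 326 include tests whose direction turned without a call on either side, such as WIN2 in DS vs CK with mapped reads. They also include the unchanged tests under the choice of members by annotation words alone. No test turned direction with a call on either side.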
